A study of Mus musculus with 60 samples.

Results

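The 6 genes described here are Obox1, Obox2, Obox3, Obox5, Obox6 and Nr5a2, transcription factor genes tied to the start of transcription in the mouse embryo. They were taken from the table of 27238 genes by their Ensembl identifiers, matched to symbols in GENCODE M21, and all 6 were found. Obox1 (chr7:15388948-15556866), Obox2 (chr7:15388721-15398545) and Obox5 (chr7:15750131-15759800) lie on the plus strand, and Obox3 (chr7:15479825-15639902) and Obox6 (chr7:15833241-15839678) lie on the minus strand of the same Obox cluster (build GRCm38). Nr5a2 lies on chromosome 1 (chr1:136842571-136960448, minus strand). All 6 are annotated as protein coding.

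Single embryos were sequenced in 3 libraries per group, together with the donor cells, which gave 60 libraries in 20 groups. In vivo embryos came from superovulated C57BL/6 females mated with DBA2 males. Nuclear transfer (NT) embryos were built from enucleated MII oocytes of adult B6D2F1 (BDF1) females with a nucleus from a cumulus cell (CC), called NTC, or from a mouse embryonic fibroblast (MEF), called NTM. They were activated in strontium chloride with cytochalasin B and the histone deacetylase inhibitor Scriptaid, and were cultured in vitro. The MEFs came from midgestation BDF1 fetuses and were starved of serum, so the nuclei of all embryo types were of BDF1 background. The eggs, with their maternal RNA, came from C57BL/6 females in vivo and from BDF1 females after NT. NT thus differed from in vivo embryos in the strain of the egg, activation, drug treatment and culture as well as in the nucleus. Each embryo type was sampled as 1-cell, 2-cell, 4-cell and 8-cell embryos, morulas and blastulas, picked by their morphology.

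OBOX proteins are homeodomain factors that bind DNA, and most of them are made in the oocyte and handed to the egg. Maternal OBOX factors and the zygotic OBOX3 are known to act redundantly in the activation of the mouse genome, where they help to bring RNA polymerase II to its targets. NR5A2 (also called LRH-1) is an orphan nuclear receptor that binds DNA as a monomer, is required for early development, keeps Pou5f1 active in the epiblast, and also drives steroid hormone synthesis in the granulosa and cumulus cells of the ovary.

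Obox1, Obox3 and Obox5 share a stretch of sequence just before their RefSeq start sites, shown here for how alike the copies of this cluster are. The 30 bases around a TATA-like element (TATATAA, in capitals, chosen after the sequences had been seen) are given 5′ to 3′ on the strand of the gene, from RefSeq on GRCm38.p6. Obox7, a neighbour in the cluster, is shown beside them.
Obox1: ccaagtttgcagagaTATATAAgggcaggt
Obox3: ccaagtttggagagaTATATAAgggcaggt
Obox5: ccaagtttgcagagaTATATAAgggcaggt
Obox7: ccaagtttgcagagaTATATAAgggcaggt
These windows lie at chr7:15547223-15547252 (Obox1), chr7:15639793-15639822 (Obox3, minus strand), chr7:15750324-15750353 (Obox5) and chr7:14659688-14659717 (Obox7). Obox1 and Obox7 match Obox5 at 30 of 30 bases and Obox3 at 29. The element begins 19 bases before the start of Obox1, 30 before that of Obox3, 31 before that of Obox5 and 5 before that of Obox7. GENCODE M21 places each window inside an untranslated exon of 1 longer transcript of its gene, so the start sites differ between the annotations.

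Over the 250 bases before the start site, the best local alignment to Obox5 was 97.0% identical for Obox1 (233 bases), 95.6% for Obox2 (136 bases) and 92.8% for Obox3 (125 bases). TATATAA or its reverse complement TTATATA was found in the 250 bases of 3.04% of 32851 RefSeq promoters, and in those of Obox1, Obox3 and Obox5. The motif of paired-like homeodomains, TAATCC or GGATTA, was in 6.25% of promoters and had 1 match among the members, at 168 bases before the start of Obox3. The NR5A motif TCAAGGNCA or TGNCCTTGA was in 1.39% of promoters and in none of the members' windows, and the promoters of Nr5a2 held none of these letters. Obox6 was not among the promoters used here.

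Reads of Obox1 and Obox2 are partly interchangeable. Of the stretches of 150 bases (the read length) in Obox1 transcripts, 34.1% also occur in Obox2, and of those in Obox2, 38.2% also occur in Obox1. For stretches of 50 bases the shares found in another gene were 57.4% for Obox1, 65.1% for Obox2, 20.2% for Obox3, 18.1% for Obox5, 5.02% for Obox6 and 0.0505% for Nr5a2. The split between Obox1 and Obox2 is therefore uncertain. The loci of Obox1 and Obox2 also overlap on the same strand, and Obox1 and Obox3 overlap on opposite strands.

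Levels are given as RPKM, the reads of a gene scaled to the length of its exons and to the reads on all genes of the library, as deposited. Libraries held 5294167 to 47830132 reads on genes (median 15451428), as inferred from the steps between low RPKM values. The members' lower values, which could be checked, corresponded to whole numbers of reads. Nr5a2 was above 0 in 58 of 60 libraries, Obox6 in 44, Obox1 in 41, Obox5 in 40, Obox2 in 37 and Obox3 in 11. Cumulus markers summed to at most 8.97 RPKM in any embryo library (650 to 1453 in CCs, though 517 to 1231 in MEFs, so the list does not separate the donors), and fibroblast markers to at most 22.3 RPKM (9280 to 11959 in MEFs). RPKM is relative to the reads of the library, so less RNA of a gene per cell, fewer cells and a different total of RNA cannot be told apart. P-values are from limma on log2(RPKM + 1), adjusted by the Benjamini-Hochberg method over all genes tested. They set a difference of group means against the spread between the libraries of a group, moderated over genes. A gene was called at an adjusted p under 0.05 and a log2 difference of at least 1 in size.

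The members fell into 3 patterns over the 20 groups. Obox1, Obox2 and Obox5 were highest at the 1-cell and 2-cell stages and far lower from the 4-cell stage on. Obox6 and, in vivo and in NTM embryos, Nr5a2 had their highest means at the 4-cell and 8-cell stages. In NTC embryos Nr5a2 averaged 11.8 RPKM in 4-cell embryos, 16.8 in 8-cell embryos and 16.1 in morulas. Obox3 was at most 5.86 RPKM in any library.

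**Figure D1:**
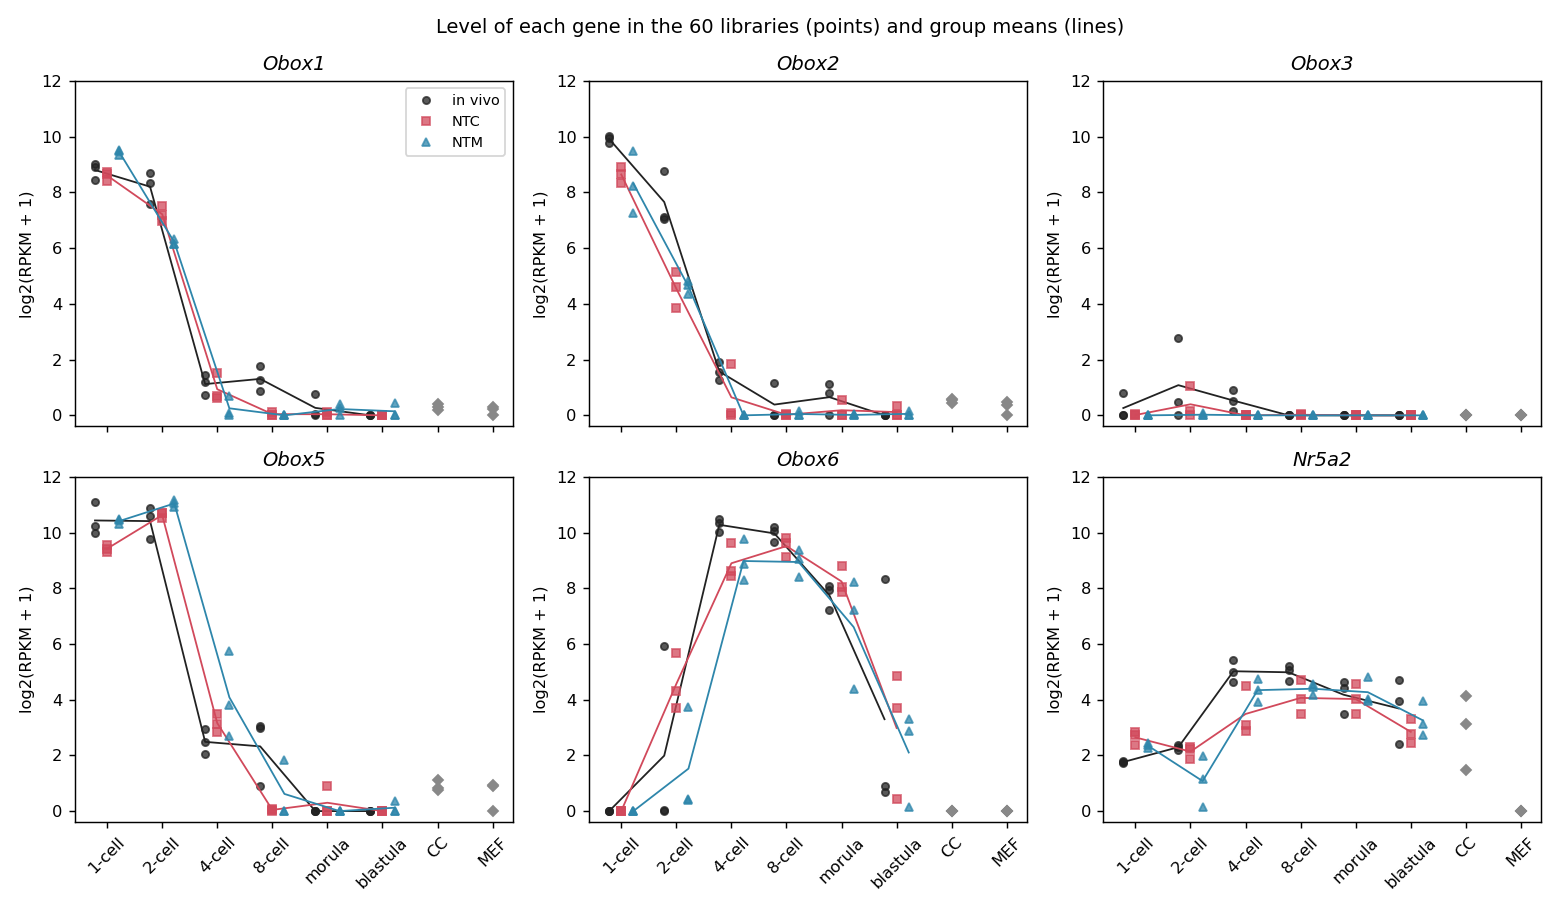
Level of each gene in log2(RPKM + 1) (vertical axis) by stage and in donor cells (horizontal axis), with a point per library and lines through the group means of in vivo, NTC and NTM embryos. Obox1, Obox2 and Obox5 are low from 4-cell embryos on, and Obox6 and Nr5a2 are higher in 4-cell and 8-cell than in 2-cell embryos.

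Obox5 was the most abundant member before the 4-cell stage. In vivo 1-cell libraries held 2167, 1214 and 1001 RPKM, and in vivo 2-cell libraries held 871, 1547 and 1863. The 2-cell values were 1648, 1450 and 1649 RPKM in NTC and 1944, 2115 and 2278 in NTM embryos. The group means were highest in NTM 2-cell embryos, at 2112 ± 167 RPKM (SD, n = 3), and these libraries lay above all other 2-cell libraries. Of all genes tested, 15.6% had no overlap of NTM with in vivo 2-cell libraries and 12.1% none with NTC ones. NTM 2-cell embryos were followed by NTC 2-cell embryos (1582 ± 115) and by in vivo 1-cell and 2-cell embryos (1461 ± 621 and 1427 ± 507), which overlapped.

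Obox1 had its highest mean in NTM 1-cell embryos, at 702 ± 41.3 RPKM, above every other library, and the means of in vivo and NTC 1-cell embryos were 453 ± 91.2 and 391 ± 44.7. Obox2 was highest in in vivo 1-cell embryos, with 999, 1049 and 871 RPKM. The libraries of NTC 1-cell embryos had 327, 478 and 409 RPKM of Obox2, and those of NTM 1-cell embryos had 714, 297 and 153, so no NT library reached an in vivo one. NT and in vivo 1-cell libraries did not overlap for 33.5% (NTC) and 23.1% (NTM) of all genes tested. For NTM and NTC 1-cell libraries the share was 42.1%.

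Obox3, whose product is known as a zygotic OBOX factor, was seen in only 11 libraries. Its highest value, 5.86 RPKM, was that of in vivo 2-cell replicate 3 (309 reads), beside 0.387 (23 reads) and 0 in the other two. NTC 2-cell libraries held 0.106, 0 and 1.07 RPKM, and in vivo 4-cell libraries 0.882, 0.126 and 0.422. The in vivo 4-cell values (37, 6 and 22 reads) lay above those of in vivo 8-cell, NTC 4-cell and NTM 4-cell libraries, which were all at 0. Set against 3 reads per library, the in vivo 4-cell mean was at least 5.24-, 5.31- and 7.11-fold higher. Obox3 was too low to pass the filter in these 3 comparisons, so they were not tested. Of the genes that did pass, 55.6%, 43.9% and 41.1% had no overlap in them. Where Obox3 passed, it was not called, except in one fit over all groups for NTM against in vivo 2-cell embryos (-1.06).

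Obox6 was at 0 in all 9 libraries of 1-cell embryos and in all 6 donor libraries, where a count of 0 allows up to 3 reads (0.123 to 0.221 RPKM in the 1-cell libraries). It reached 1049, 1416 and 1283 RPKM in in vivo 4-cell libraries, the highest mean among the 6 genes at that stage. The order of its group means was in vivo 4-cell (1249 ± 186), in vivo 8-cell (1012 ± 182) and NTC 8-cell (744 ± 176), and neighbours in this order overlapped.

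Nr5a2 was low at the 1-cell stage, with 2.39, 2.32 and 2.47 RPKM in in vivo libraries, 6.12, 5.73 and 4.12 in NTC libraries and 3.76, 4.13 and 4.51 in NTM libraries. Its group means were highest in in vivo 4-cell and 8-cell embryos (32.3 ± 9.37 and 31.0 ± 6.08 RPKM). These 2 groups overlapped each other, and in vivo 8-cell libraries did not overlap the next group, NTM 8-cell (20.2 ± 2.98). NTM and in vivo 8-cell libraries did not overlap for 25.8% of all genes tested, and Nr5a2 was not called between them. From NTM 8-cell embryos down to NTC morulas (16.1 ± 6.41) each group overlapped the next. In the donor cells Nr5a2 was at 1.78, 7.72 and 16.4 RPKM in CCs and at 0.00805, 0 and 0 in MEFs. The values of the donor groups did not overlap, which held for 24.5% of all genes tested. The limma difference (MEF minus CC) of -2.90 ± 0.84 (log2, SE) had an adjusted p of 0.0936, and no member was called between the donor groups. In that comparison 6.29% of all genes tested were called. The difference was called without CC replicate 1 (-3.62), with a pseudocount of 0.1 (-5.93) and in one fit over all groups.

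At the 1-cell stage the reconstructed embryos were far from their donors in the maternal OBOX genes. In NTC 1-cell embryos Obox1, Obox2 and Obox5 were higher than in CCs by 8.31 ± 0.23, 8.11 ± 0.25 and 8.52 ± 0.22 (log2, SE; limma, adjusted p 1.24e-05, 1.26e-05 and 1.24e-05), where 50% of all genes were called. Nr5a2 did not pass there (-0.26 ± 0.69, adjusted p = 0.762). In NTM 1-cell embryos these 3 genes were higher than in MEFs by 9.27 ± 0.24, 8.04 ± 0.56 and 9.80 ± 0.32 (adjusted p 3.02e-06, 4.11e-05 and 3.84e-06), and Nr5a2 was higher by 2.35 ± 0.30 (adjusted p = 0.000653; 5.36 with a pseudocount of 0.1), where 55.2% of genes were called. Donor cells themselves held at most 1.18 RPKM of Obox5.

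From 1-cell to 2-cell embryos the maternal OBOX genes changed after nuclear transfer. Obox2 fell by 4.10 ± 0.33 on the log2 scale in NTC embryos (limma, adjusted p = 0.000409), to 34.6, 13.6 and 23.5 RPKM, and by 3.70 ± 0.52 in NTM embryos (adjusted p = 0.00455), to 19.7, 24.8 and 27.03. Obox1 fell by 1.39 ± 0.21 in NTC (adjusted p = 0.00391) and by 3.24 ± 0.24 in NTM embryos (adjusted p = 0.000395). Obox5 went the other way in NTC embryos and rose by 1.21 ± 0.15 (adjusted p = 0.00201, not called in one fit over all groups), and its change of 0.63 ± 0.18 in NTM embryos was not called (adjusted p = 0.0579). The members thus gave 4 calls in NTC embryos, where 13.5% of all genes were called, and 2 in NTM embryos, where 9.4% were.

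The fourth call in NTC embryos was Obox6, which rose from 0 in all 3 1-cell libraries to 50.01, 12.01 and 18.97 RPKM (limma log2 change 4.56 ± 0.54, adjusted p = 0.00136). Set against 3 reads per 1-cell library, its mean was at least 152-fold higher at the 2-cell stage, and with a pseudocount of 0.1 the log2 change was 7.82. In NTM 2-cell libraries Obox6 was at 12.2, 0.324 and 0.36 RPKM, which was not called (1.52 ± 0.89, adjusted p = 0.323).

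In vivo, limma called no member at this step and 0% of all genes. These in vivo groups were mixed. Across genes, in vivo 2-cell replicate 1 correlated more with the NTC 1-cell mean (0.934) than with the rest of its group (0.889). In vivo 2-cell replicate 3 was nearer to NTC 2-cell embryos (0.837 against 0.813). In vivo 1-cell replicates 1 and 3 were also nearer to another group, as were NTC 2-cell replicate 3 and NTM 2-cell replicates 1 and 2. Of the members, Obox2 alone had an unadjusted p under 0.05 in limma at this step in vivo, as had 615 of 10854 genes tested. Its change was -2.27 ± 0.50 (adjusted p = 0.301), and was called in one fit over all groups. The in vivo 2-cell values of Obox2, at 139, 438 and 133 RPKM, lay below all 1-cell values. Of all genes tested, 12.2% had no overlap between these stages. Obox6 was at 0.04, 0 and 59.2 RPKM in in vivo 2-cell libraries, so 1 library carried nearly all of it.

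That library, in vivo 2-cell replicate 3, also stood apart in the 2-cell activation markers, 15 genes such as Zscan4d, Tcstv1 and Zfp352 that mark the burst of transcription in 2-cell embryos. Their summed level was 274, 619 and 2412 RPKM in the in vivo 2-cell libraries, 438, 280 and 272 in NTC and 272, 240 and 135 in NTM libraries. Obox3 and Obox6 had their highest 2-cell values in the library with the highest marker sum. Within NTC embryos the highest Obox6 value (50.01 RPKM) was in the library with the highest sum (438), but the highest Obox3 value (1.07) was in the library with the lowest (272). How far along the 2-cell stage each embryo was cannot be told apart from a difference in these genes.

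**Figure D2:**
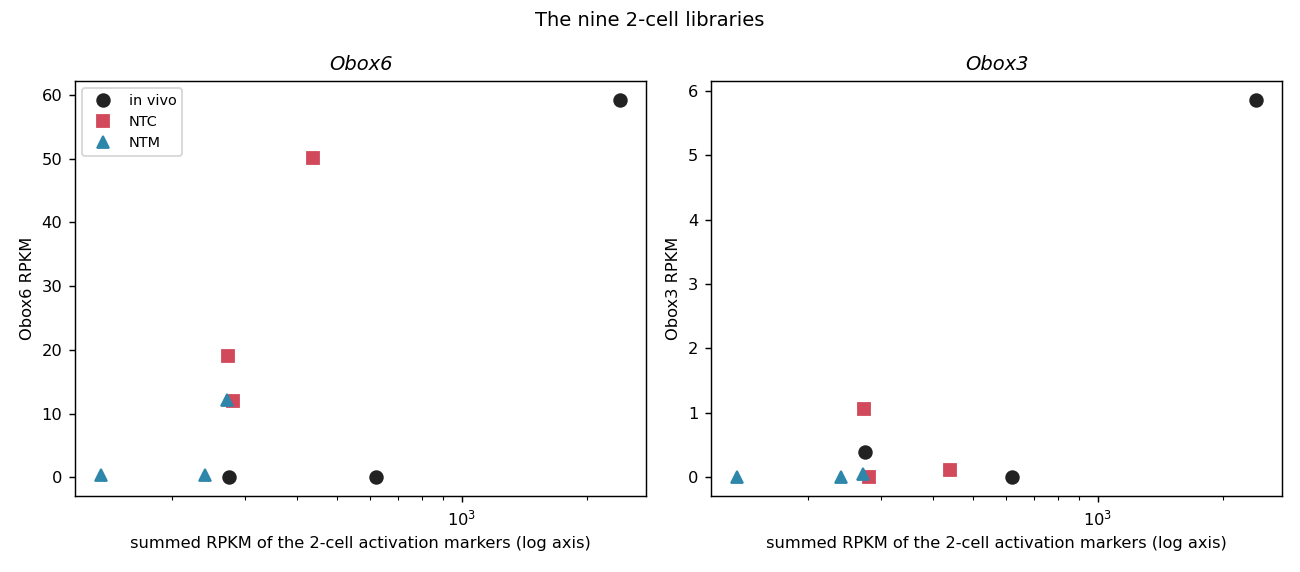
RPKM of Obox6 (left) and Obox3 (right) in the 9 2-cell libraries against the summed RPKM of the 2-cell activation markers (log axis), with a point per library. In vivo replicate 3 lies at the far right, with 59.2 RPKM of Obox6 and 5.86 of Obox3.

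Between 2-cell embryos of different types no member was called when groups were fitted in pairs. In one fit over all groups Obox2 was called lower than in vivo in NTC (-3.11) and NTM embryos (-3.03). That fit also called Obox1 (-1.99) and Obox3 (-1.06) lower in NTM embryos. Obox2 differed from in vivo by -3.11 ± 0.56 in NTC (log2, limma, adjusted p = 0.0737) and by -3.03 ± 0.57 in NTM embryos (adjusted p = 0.0717), and no NT library overlapped the in vivo ones. Obox1 held 189, 417 and 324 RPKM in vivo, 144, 182 and 124 in NTC libraries and 70.2, 79.6 and 70.7 in NTM libraries, again without overlap. Of all genes tested, 15.3% (NTC) and 15.6% (NTM) had no overlap with in vivo libraries. The differences of Obox1 were -0.99 ± 0.40 (adjusted p = 0.487) and -1.99 ± 0.46 (adjusted p = 0.127). Obox1 and Obox2 were the members with an unadjusted p under 0.05 in both comparisons. Such a p was held by 1097 of 11822 genes tested for NTC and by 1067 of 11345 for NTM. After adjustment 0.152% (NTC) and 0.141% (NTM) of all genes were called. When in vivo 2-cell replicate 3 was left out, Obox2 was called lower (-3.41) and Obox6 higher (4.54) in NTC than in in vivo embryos, both at an adjusted p of 0.0192.

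From 2-cell to 4-cell embryos 5 of the 6 members changed in vivo. In vivo, Obox5 fell from the values above to 4.52, 3.17 and 6.63 RPKM, or to 0.335% of its 2-cell mean, and its log2 change was -7.92 ± 0.42 (limma, adjusted p = 2.6e-05). Obox1 fell by 7.08 ± 0.42 to 1.28, 1.70 and 0.677 RPKM (adjusted p = 3.5e-05), and Obox2 fell by 6.08 ± 0.54 to 2.77, 1.39 and 1.94 RPKM (adjusted p = 0.000125). No 4-cell library overlapped a 2-cell library for any of the 3 genes. The same held for 61.4% of all genes tested at this step.

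Obox6 rose by 8.29 ± 1.49 on the log2 scale at this step in vivo (limma, adjusted p = 0.00287), and by 10.2 without 2-cell replicate 3. Nr5a2 rose by 2.73 ± 0.36 (adjusted p = 0.00069), from 4.18, 3.61 and 3.95 RPKM to 30.5, 24.0 and 42.4. Of the 6 members, 2 were called higher and 3 lower at the 4-cell stage, and only Obox3 was not called (-0.55 ± 0.74). Over all genes 52.2% were called at this step, 31.4% higher and 20.8% lower.

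The maternal OBOX genes also fell in NT embryos. The log2 changes in NTC embryos were -7.47 ± 0.31 for Obox5, -6.28 ± 0.44 for Obox1 and -3.90 ± 0.64 for Obox2 (limma, adjusted p 4.84e-05, 9.43e-05 and 0.00214). Obox5 was left at 6.18, 10.3 and 7.76 RPKM. Obox6 rose by 4.33 ± 0.55 (adjusted p = 0.00068). These were 4 calls among 5 members tested, with 36.6% of all genes called, 16.4% higher and 20.1% lower.

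In NTM embryos the changes were -6.96 ± 0.72 for Obox5, -5.96 ± 0.58 for Obox1 and -4.62 ± 0.58 for Obox2 (limma, adjusted p 0.00061, 0.000505 and 0.00121). Obox5 was left at 13.02, 52.37 and 5.51 RPKM, so 1 library kept more than the rest. Obox2 was at 0 in all 3 NTM 4-cell libraries, and set against 3 reads per library it was at least 183-fold lower than in NTM 2-cell libraries. With a pseudocount of 0.1 the changes of Obox2 were -7.89 in NTM and -5.98 in NTC embryos. Obox6 rose by 7.45 ± 0.94 (adjusted p = 0.00123) and Nr5a2 by 3.26 ± 0.69 (adjusted p = 0.00973), from 1.202, 2.90 and 0.096 RPKM to 26.0, 14.2 and 19.3. All 5 members tested were called, where 26.4% of all genes were, 12.1% higher and 14.3% lower.

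Nr5a2 was the exception in NTC embryos. Its NTC 2-cell values were 3.95, 2.64 and 3.71 RPKM, and its NTC 4-cell values were 21.6, 6.31 and 7.52. The groups did not overlap, as for 50.5% of all genes tested, but the change of 1.35 ± 0.55 was not called (limma, adjusted p = 0.0862). It was called in one fit over all groups, and with the mitochondrial reads left out of the library totals, at 1.72 (adjusted p = 0.0475).

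Whether these changes differed between NT and in vivo embryos was tested as an interaction. From 2-cell to 4-cell embryos limma called no member, where 14.3% (NTC) and 9.91% (NTM) of all genes were called. The largest differences for NTC were Obox6 (-3.96 ± 1.70, adjusted p = 0.155) and Obox2 (2.18 ± 0.87, adjusted p = 0.122), which had unadjusted p-values under 0.05, and for NTM no member had one. Over all genes tested 3558 of 13221 (NTC) and 3116 of 13062 (NTM) had one. Without in vivo 2-cell replicate 3 the Obox6 difference for NTC was called, at -5.92, and without NTC 4-cell replicate 1 that of Nr5a2 was, at -1.88. The Obox2 difference for NTC was called in one fit over all groups.

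From 1-cell to 2-cell embryos 1 member was called. The change of Obox1 was more negative in NTM than in in vivo embryos (difference -2.64 ± 0.49 on the log2 scale, limma, adjusted p = 0.0472), with 0.204% of all genes called. It was no longer called on leaving out any of 10 of the 12 libraries, with differences of -2.75 to -2.39 in those fits, nor with median-ratio scaling (-2.16), nuclear reads only (-2.50) or no filter on low values. Nr5a2 had an unadjusted p under 0.05 there (-1.81 ± 0.84, adjusted p = 0.39), as had 1439 of 11278 genes tested. No member was called for NTC at this step, where 0.0256% of genes were and Obox2 and Obox5 had unadjusted p-values under 0.05. Over all genes tested for NTC 1341 of 11730 had one.

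**Figure D3:**
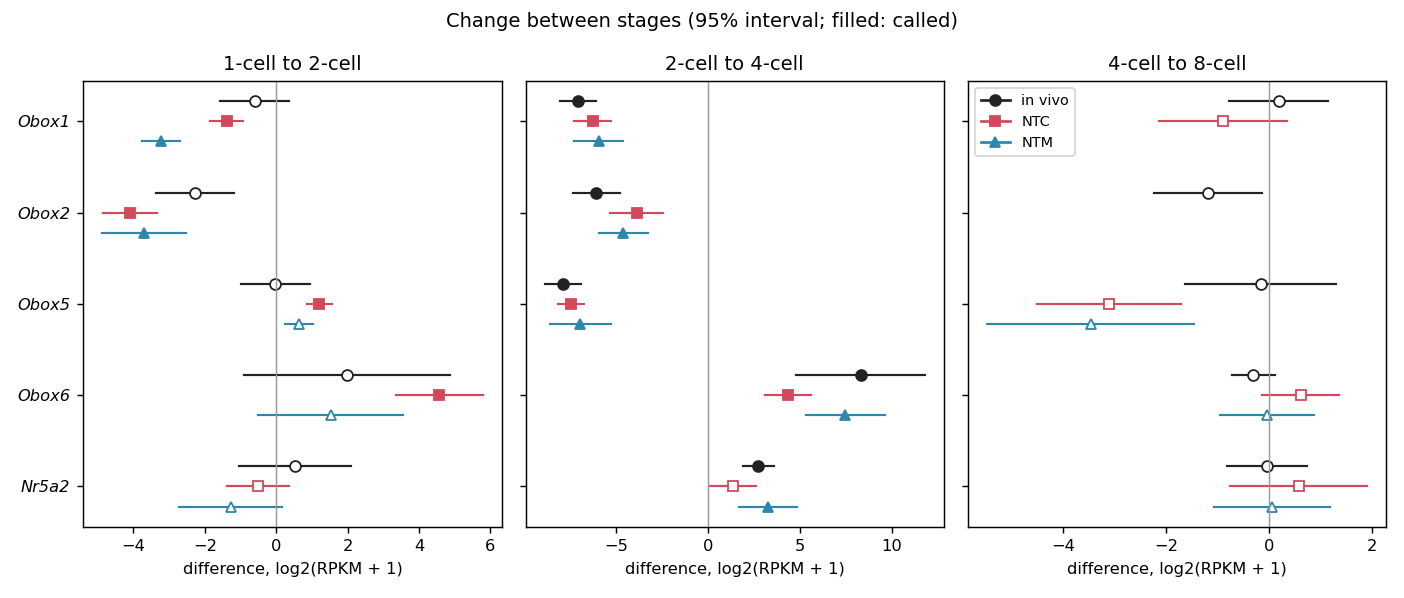
Change between successive stages in log2(RPKM + 1) (horizontal axis) for 5 genes in in vivo, NTC and NTM embryos, with 95% intervals and filled symbols for called changes. From 2-cell to 4-cell embryos Obox1, Obox2 and Obox5 lie between -7.92 and -3.90 in all types, and Obox6 between 4.33 and 8.29.

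In 4-cell embryos Obox6 was lower in both NT groups and Nr5a2 was lower in NTC embryos than in vivo. Obox6 held 1049, 1416 and 1283 RPKM in vivo, 789, 349 and 391 in NTC libraries and 472, 311 and 866 in NTM libraries, so no NT library reached an in vivo one. NT and in vivo libraries did not overlap for 43.9% (NTC) and 41.1% (NTM) of all genes tested. The difference of Obox6 from in vivo was -1.38 ± 0.31 in NTC (log2, limma, adjusted p = 0.0104) and -1.30 ± 0.36 in NTM embryos (adjusted p = 0.0395). Nr5a2 held 30.5, 24.0 and 42.4 RPKM in vivo, 21.6, 6.31 and 7.52 in NTC libraries and 26.0, 14.2 and 19.3 in NTM libraries. Its difference was -1.53 ± 0.48 in NTC embryos (limma, adjusted p = 0.0443), and that of -0.68 ± 0.44 in NTM embryos was not called (adjusted p = 0.311).

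Obox2, though low at this stage, was also lower in NTM 4-cell embryos, with 0 in 3 libraries against 2.77, 1.39 and 1.94 RPKM in vivo. This is at least 15.6-fold lower against 3 reads per library (limma difference -1.57 ± 0.43, adjusted p = 0.0351), and the size of the difference depended on the pseudocount (-4.36 with 0.1). Of 5 members tested 2 were thus called lower and none higher in each NT group, where 27.8% (NTC) and 21.1% (NTM) of all genes were called. Obox5 had higher means in NTC (8.09 ± 2.09 RPKM) and NTM (23.6 ± 25.2) than in in vivo embryos (4.77 ± 1.74). It was called higher in NTM embryos in one fit over all groups (1.60). Both NT groups were set against the same in vivo libraries, so their differences are not independent.

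These 4-cell differences depended on how a library was scaled. Mitochondrial genes took 8.87%, 6.88% and 5.68% of the reads in in vivo 4-cell libraries, 33.0%, 34.7% and 31.6% in NTC and 40.4%, 35.8% and 29.6% in NTM libraries. In in vivo 8-cell libraries they took 32.1%, 35.7% and 45.05%, and whether NT and in vivo 4-cell embryos differed in timing was not tested. The median difference of all genes tested was -0.39 (NTC) and -0.69 (NTM), and median-ratio scaling moved it by 0.36 and 0.58. With nuclear reads only, the differences were -0.91 for Obox6 in NTC (limma, adjusted p = 0.0539), -0.78 for Obox6 in NTM (adjusted p = 0.155) and -1.11 for Nr5a2 in NTC embryos (adjusted p = 0.14), and none was called. With median-ratio scaling the differences of Obox6 were -0.91 and -0.52 and those of Nr5a2 were -1.09 and 0.07, and none was called. Without the filter on low values they were not called either, and in one fit over all groups neither difference of Obox6 was called. Obox2 in NTM embryos lost its call with median-ratio scaling (-1.28) and kept it with nuclear reads (-1.65).

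Single libraries also decided these calls. Obox6 in NTC embryos lost its call without in vivo 4-cell replicate 2 (-1.28, adjusted p = 0.0609) or 3 (-1.36, adjusted p = 0.0547). Nr5a2 in NTC embryos lost it without NTC replicate 2 (-1.23) or 3 (-1.34) or without any of the in vivo libraries (-1.72 to -1.32), and was called without NTC replicate 1, at -2.04 (adjusted p = 0.00615). Obox6 in NTM embryos kept its call without NTM replicate 3 (-1.69) and lost it without each of the other 5 libraries (-1.42 to -0.95). Obox2 in NTM embryos lost it without any of the 6 libraries (-1.73 to -1.40).

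**Figure D4:**
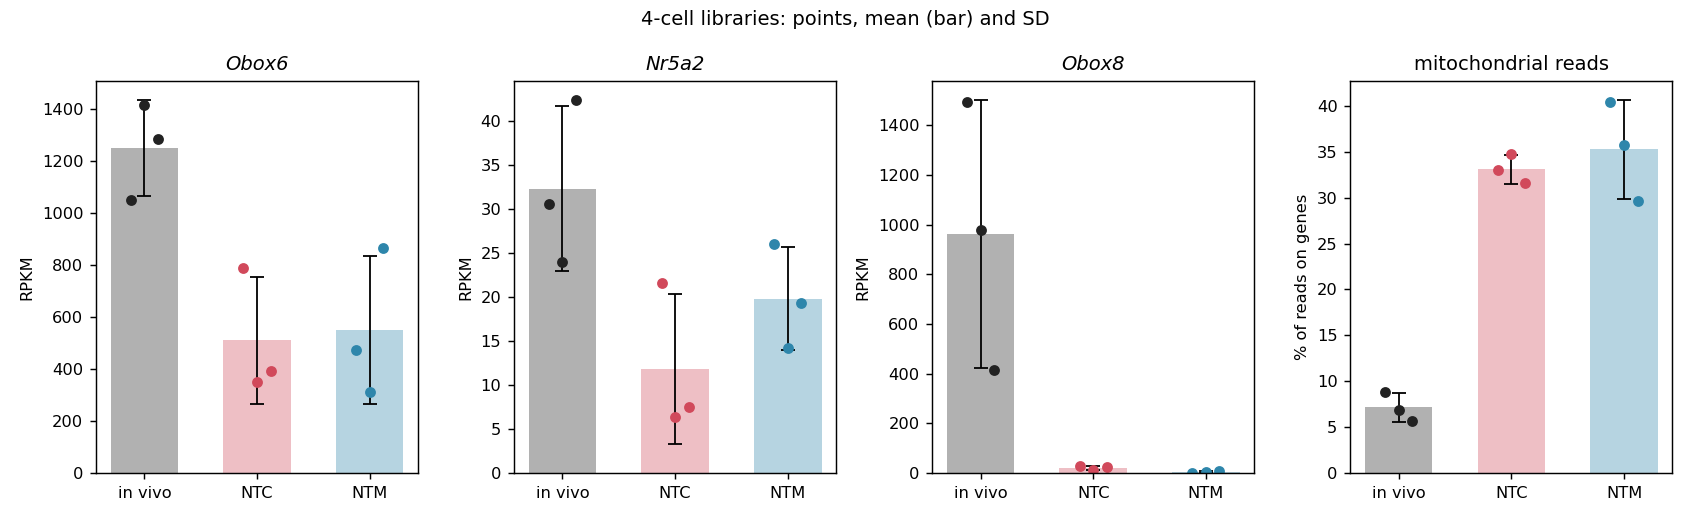
Obox6, Nr5a2 and Obox8 in RPKM and the percentage of reads on mitochondrial genes (vertical axes) in 4-cell embryos of the 3 types, with a point per library, bars at the mean and SD as error bars. In vivo libraries lie above both NT types for Obox6 and Obox8, and below them for mitochondrial reads (5.68% to 8.87% against 29.6% to 40.4%).

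At the other stages few differences of the members from in vivo embryos passed. In 1-cell embryos Obox2 was lower in NTC than in vivo (-1.28 ± 0.23 on the log2 scale, limma, adjusted p = 0.048), where 1.16% of all genes were called. The call was lost without any NTC library or without in vivo replicate 2 or 3 (-1.41 to -1.13), and with median-ratio scaling (-1.63), a pseudocount of 0.1, no filter or one fit over all groups. In NTM 1-cell embryos the difference of Obox2 was -1.60 ± 0.49 (adjusted p = 0.182), and no member was called where 1.28% of genes were (Obox1 and Obox2 had unadjusted p-values under 0.05). Such a p was held by 1525 of 10307 genes tested. Obox2 was called lower there in one fit over all groups.

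No member was called against in vivo embryos in 8-cell embryos, morulas or blastulas. Over all genes limma called 1.46%, 0.0321% and 9.46% for NTC and 2.02%, 0.168% and 0.746% for NTM embryos at these stages. Obox6 at the 8-cell stage held 1064, 1163 and 809 RPKM in vivo, 791, 892 and 549 in NTC libraries and 339, 667 and 522 in NTM libraries, with differences of -0.46 ± 0.27 and -1.03 ± 0.29 (limma, adjusted p = 0.35 and 0.0988). Unadjusted p-values under 0.05 in 8-cell embryos belonged to Obox1 and Obox5 for NTC (-1.27 and -2.28) and to Obox1, Obox5 and Obox6 for NTM (-1.31, -1.71 and -1.03). They were found for 1893 of 9520 (NTC) and 1594 of 8607 (NTM) genes tested. In one fit over all groups Obox1 and Obox5 were called lower in both NT types. In morulas and blastulas no member had an unadjusted p under 0.05. The 95% intervals in blastulas ran from -5.37 to 4.74 for Obox6 and from -2.66 to 0.98 for Nr5a2 (NTC), so a difference of over 1 on the log2 scale lay within the interval in both directions for Obox6 and only downward for Nr5a2.

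Between NTM and NTC embryos limma called none of the members. At the 1-cell stage, where 19.8% of all genes were called, Obox1 and Obox5 were higher in NTM embryos by 0.85 ± 0.14 and 0.99 ± 0.13 (adjusted p = 0.00393 and 0.00162), below the threshold of 1 on the log2 scale. Obox5 passed that threshold without NTC replicate 1 (1.06) or NTM replicate 2 (1.05). With median-ratio scaling both were called (1.01 and 1.15). In 2-cell and 4-cell embryos, morulas and blastulas 0% of all genes were called, and in 8-cell embryos 0.0507%. Obox1 and Obox6 in 2-cell embryos were the other members with an unadjusted p under 0.05. At that stage 772 of 11609 genes tested had one.

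**Figure D5:**
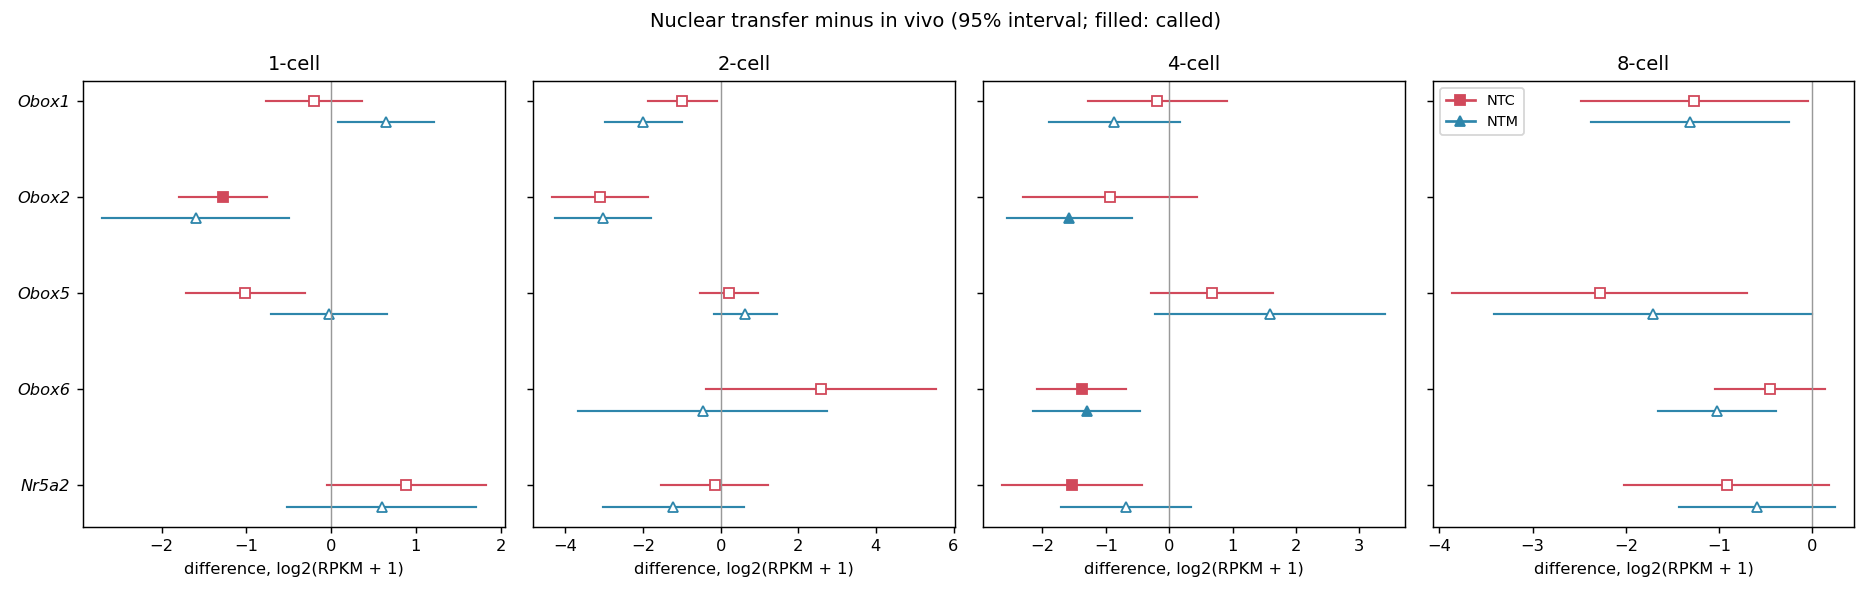
Difference of NTC and NTM from in vivo embryos in log2(RPKM + 1) (horizontal axis) for 5 genes at the 1-cell to 8-cell stages, with 95% intervals and filled symbols for called differences. Filled symbols are Obox2 at the 1-cell stage (NTC, -1.28) and, at the 4-cell stage, Obox6 (-1.38 and -1.30), Nr5a2 (NTC, -1.53) and Obox2 (NTM, -1.57).

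After the 4-cell stage Obox6 was the most abundant OBOX member. From there to 8-cell embryos no member was called in any type, where 43.7% (in vivo), 0.0564% (NTC) and 0.363% (NTM) of all genes were called. Unadjusted p-values were under 0.05 for Obox2 in vivo and for Obox5 in both NT types. Over all genes tested this held for 5564 of 10417 (in vivo), 1139 of 10634 (NTC) and 1092 of 9632 (NTM). In one fit over all groups Obox2 was called lower in vivo (-1.19) and Obox5 in NTC (-3.12) and NTM embryos (-3.47). The median change of all genes was -1.05 in vivo at this step, and median-ratio scaling moved that median by 0.89. Under that scaling Obox6 and Nr5a2 were called higher at the 8-cell stage in vivo, at 1.12 and 1.34, against -0.31 ± 0.18 and -0.04 ± 0.34 as deposited. Obox2 in vivo was called lower without 8-cell replicate 2, at -1.57.

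In 8-cell embryos Obox5 was at 7.39, 6.91 and 0.888 RPKM in vivo, at 0.064, 0.0279 and 0 in NTC libraries (2, 1 and 0 reads, under the limit of 3) and at 0, 0 and 2.60 in NTM libraries. Its change from 4-cell embryos was more negative in NTC than in vivo (interaction -2.95 ± 0.81, limma, adjusted p = 0.0215), where 19.5% of all genes were called. With NTC 8-cell values this low its size depended on the pseudocount (-5.64 with 0.1). The call was lost without in vivo 4-cell replicate 2 (-2.74) or without in vivo 8-cell replicate 1 (-2.58) or 2 (-2.62). For NTM the difference was -3.30 ± 1.17 (adjusted p = 0.0669), with 18.7% of genes called. It was called without NTM 4-cell replicate 3 (-3.99), NTM 8-cell replicate 3 (-3.92) or in vivo 8-cell replicate 3 (-4.01). It was also called with median-ratio scaling (-4.05) and in one fit over all groups. Obox6 had an interaction of 0.92 ± 0.42 for NTC (adjusted p = 0.145), which was called without NTC 4-cell replicate 1 (1.29).

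From the 8-cell stage to the morula no member was called, and 0.0116% (in vivo) and 0% (NTC and NTM) of all genes were. Obox6 had an unadjusted p under 0.05 in all 3 types, with changes of -2.22 ± 0.36, -1.27 ± 0.34 and -2.34 ± 0.76 (adjusted p = 0.103, 0.22 and 0.434). Over all genes tested 873 of 8592 (in vivo), 1270 of 10107 (NTC) and 843 of 8841 (NTM) had one. For Obox6 morula libraries lay below 8-cell libraries in each type. These stages did not overlap for 16.92% (in vivo), 20.97% (NTC) and 15.44% (NTM) of all genes tested. The in vivo change of Obox6 was called with median-ratio scaling (-2.33) and with nuclear reads only (-2.07). Obox5 in vivo also had an unadjusted p under 0.05 (-2.32 ± 0.72), and was called in one fit over all groups. With 0 reads in all 3 in vivo morulas it was at least 55.8-fold lower there than in 8-cell embryos. Obox6 held 149, 243 and 269 RPKM in in vivo morulas, 266, 447 and 232 in NTC and 148, 296 and 19.9 in NTM morulas.

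From morula to blastula Obox6 fell in NT embryos. In NTC embryos the change was -5.26 ± 0.92 (limma, adjusted p = 0.0136), to 0.338, 11.9 and 27.6 RPKM, where 7.16% of all genes were called. In NTM embryos it was -4.50 ± 0.98 (adjusted p = 0.0299), to 6.30, 8.82 and 0.108 RPKM, where 4.22% were. Both calls were lost without the filter on low values, the NTC call without morula replicate 1 (-5.35), and the NTM call without any library but morula replicate 3 (-5.10 to -3.52).

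In vivo blastulas held 0.853, 0.609 and 318.5 RPKM of Obox6, and the change of -4.45 ± 1.77 was not called (limma, adjusted p = 0.25), with 0.801% of genes called. Without blastula replicate 3 it was called, at -6.96 (adjusted p = 0.0285), as it was in one fit over all groups. Nr5a2 in the same 3 libraries was at 14.3, 25.4 and 4.25 RPKM, lowest where Obox6 was highest. The mean of Nr5a2 was lower in blastulas than in morulas of every type, which was not called in any (limma, adjusted p = 0.77 for in vivo, 0.125 for NTC and 0.246 for NTM embryos).

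Other genes of the same families were followed from lists. Of the other OBOX and related paired-like homeobox genes 5 of the 13 in the table passed the filter from 2-cell to 4-cell embryos in vivo. Of these, 3 rose and 1 fell, where 31.4% of all genes were called higher and 20.8% lower. Obox8, Crxos and Hesx1 averaged 0.119, 0.273 and 0 RPKM in 2-cell embryos and passed only through the 4-cell libraries. A gene that passes through 1 group alone can only come out higher there, in this list and in those below. Obox8, another gene of the cluster, rose by 9.57 ± 0.51, from 0.046, 0 and 0.311 to 1495.1, 977 and 414.5 RPKM, and Crxos by 8.43 ± 0.38, while Obox7, a maternal OBOX gene, fell by 7.59 ± 0.47. In in vivo 8-cell libraries Obox8 was at 6.65, 3.27 and 7.09 RPKM, below every in vivo 4-cell library. These 2 stages did not overlap for 55.6% of all genes tested.

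Obox8 was also lower in NT than in in vivo 4-cell embryos. NTC 4-cell libraries held 26.9, 12.2 and 22.5 RPKM and NTM libraries 0.64, 5.35 and 8.74, with differences of -5.37 ± 0.48 and -7.50 ± 0.74 from in vivo (log2, limma, adjusted p = 0.0001 and 0.000743). Crxos (-4.78 and -4.59) and Hesx1 (-3.44 and -3.26) were lower too. These 3 genes, of 4 that passed the filter, were called in each NT group, where 27.8% (NTC) and 21.1% (NTM) of all genes were. Hesx1 passed only through the in vivo libraries (mean 10.2 RPKM, against 0.0285 in NTC and 0.168 in NTM libraries). It could therefore only come out lower, and the count says nothing on the list as a whole. Obox8 averaged 962 RPKM in in vivo 4-cell and 5.67 in in vivo 8-cell embryos, beside 20.55 (NTC) and 4.91 (NTM) in 4-cell embryos. Obox6 and Nr5a2 still averaged 1012 and 31.0 RPKM in in vivo 8-cell embryos. How far along the 4-cell stage the NT and in vivo embryos were was not tested.

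Nuclear receptors related to NR5A2 and their cofactors moved in both directions. From 2-cell to 4-cell embryos in vivo 4 of 13 rose and 3 fell (median -0.09), beside 31.4% and 20.8% of all genes, with Rarg, a retinoic acid receptor, at 3.73, Nr2c2 at 2.85 and Nr6a1, the germ cell nuclear factor, at -2.98. Against in vivo 4-cell embryos 2 of 13 were lower in NTC (median 0.52) and 1 of 12 was higher and 2 lower in NTM embryos (median -0.41), beside 27.8% and 21.1% of all genes called in either direction. The coactivator Ncoa3 was lower in both (-2.53 and -2.50), Esrrb was lower in NTC (-1.52), and in NTM embryos Esrra was higher (2.41) and Nr2c2 lower (-1.82).

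Among 18 other factors with a part in genome activation 12 rose and 3 fell at this step in vivo (median 2.41), where 31.4% of all genes rose and 20.8% fell, led by Dppa3 (7.86), Nfyb (6.05) and Dppa4 (5.18). Against in vivo 4-cell embryos 9 were lower and 1 higher in NTC (median -1.31) and 7 lower in NTM embryos (median -1.42), where 27.8% and 21.1% of all genes were called, among them Dppa3 (-8.35 and -8.03) and the NF-Y subunit gene Nfyb (-3.48 and -3.89). Dppa3 held 12402, 8284 and 9154 RPKM in in vivo 4-cell libraries and 17.8 to 51.4 in the 6 NT libraries. Summed over the 18 factors, in vivo libraries held 292 to 383 RPKM at the 2-cell, 10076 to 13967 at the 4-cell and 467 to 596 at the 8-cell stage. NT 4-cell libraries held 418 to 604 (NTC) and 374 to 710 (NTM). Whether NT and in vivo 4-cell embryos differed in timing was not tested.

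Of the 2-cell activation markers 8 of 14 fell and 1 rose at this step in vivo (median -3.75; 20.8% of all genes fell), with Tcstv1 (-6.01), Zscan4d (-5.51) and Tcstv3 (-5.41) in front, and 8 of 10 oocyte markers fell as well (median -4.61), led by Bmp15 (-7.96), Ooep (-6.66) and Oosp1 (-6.60). In 4-cell embryos 2 of 11 activation markers were lower in NTC (Tdpoz4 at -3.57 and Sp110 at -1.29, median -0.42) and 1 of 10 in NTM (Sp110 at -1.78, median -1.21) than in in vivo embryos, where 27.8% and 21.1% of all genes were called. Oocyte markers summed to 63.5 to 82.0 RPKM in in vivo, 59.2 to 118.7 in NTC and 61.5 to 458 in NTM 4-cell libraries. Of the 10 tested, 1 was lower in NTC (Zp3, -1.70) and 1 higher in NTM embryos (Zp2, 3.32), with medians of 0.52 and 0.74.

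Of the later lineage factors 5 of 10 rose and 1 fell in vivo from 2-cell to 4-cell embryos (median 1.48), where 31.4% of all genes rose and 20.8% fell, with Tead4 (4.87) and Klf5 (4.85), which act in the trophectoderm and the early lineages, and Nanog (3.24), a pluripotency factor, in front. Against in vivo 4-cell embryos Nanog (-3.60 and -2.41) and Tbx3 (-3.25 and -2.55) were lower and Klf4 higher (3.66 and 3.28) in both NT groups, 5 lower and 1 higher of 9 in NTC (median -1.18) and 3 lower and 1 higher of 10 in NTM embryos (median -0.77), beside 27.8% and 21.1% of all genes. Cumulus markers had 1 gene tested in vivo at that step, Cyp19a1 (-1.33, called), and none in the NT comparisons. Of the fibroblast markers 2 were tested in vivo (median -1.39) and 1 in NTM against in vivo embryos (2.06), and limma called none.

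The members could also be set beside the genes whose group means resembled theirs most, by Pearson correlation over 20 group means among 13530 genes, given as a description since the groups share stages. The likeness was closest for Obox1 (Gm42980, r = 0.996; Tmem232, 0.995; Obox7, 0.995) and Obox5 (Gm1965, 0.996; Tcl1b1, 0.995; Accsl, 0.994), followed by Obox2 (Fbxw16, 0.991; Btg1-ps1, 0.990; Gm20356, 0.988). Obox6 was nearest to Trim43c (0.980), Trim43b (0.970) and Rab39 (0.965), and Nr5a2 to Slc35f2 (0.923), Acadm (0.916) and Cul5 (0.915). For Obox3 the genes were ENSMUSG00000086151 (0.942), Obox3-ps1 (0.930), a pseudogene of the family, and Gm3699 (0.929). Rank correlation named other genes, and shared 1 of 3 with this list for Obox1, 2 for Obox6 and 0 for the others. Among the members themselves r was 0.976 for Obox1 and Obox2, 0.959 for Obox1 and Obox5, 0.906 for Obox2 and Obox5, and 0.819 for Obox6 and Nr5a2.

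Added over the 5 OBOX members, the reads per library, scaled to the reads on all genes (RPM), covered a smaller range between stages than those of the maternal genes alone. In vivo 1-cell embryos had a sum of 5584 ± 1220 RPM (SD, n = 3), 2-cell embryos 4059 ± 1395 and 4-cell embryos 1696 ± 246.6. NTC embryos had 3742 ± 231 RPM in 2-cell and 705.5 ± 321 in 4-cell libraries, and NTM embryos had 4697 ± 355 and 789.8 ± 341. The 4-cell sum in vivo was 41.8% of the 2-cell sum, and most of it was Obox6.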

How the data were processed

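Single embryos and donor cells were sequenced as paired reads of 150 bases after tailing and PCR, without molecular identifiers. The authors deposited RPKM values of 27238 genes, from alignment with TopHat and Bowtie2 and counting with HTSeq. The submitters' processing notes also name Bowtie 0.12.2 and another build. The reads on genes of each library were inferred from the steps between its low RPKM values (tolerance 0.02). With these totals, the members' lower values, 11 (Obox3) to 43 (Nr5a2) per gene, corresponded to whole reads at GENCODE M21 exon lengths. Limits for values of 0 cover counting error only. Groups followed the labels. Values were tested on log2(RPKM + 1) with limma 3.58.1 (lmFit, eBayes with trend; R 4.3.3) over genes whose mean RPKM reached 0.5 across the compared libraries, in 46 comparisons. On simulated data with 200 genes changed by a log2 of 3, 52% (in vivo 2-cell to 4-cell, 12995 genes), 67% (NTC against in vivo 4-cell, 11457) and 41% (8-cell, 9520) were recovered, with 4, 7 and 3 false calls. The simulated noise was normal, and in the data 6784, 3189 and 139 genes were called. These rates therefore do not give the power of the comparisons. Sequences were compared with Biopython 1.88 in Python 3.11.15.

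The members and lists were chosen with earlier results of these data known. Besides the members, the genes named are those called with the largest changes (at most 3 per list) in the 2-cell to 4-cell step in vivo and in NT against in vivo 4-cell embryos, and the 3 nearest genes of each member. A gene that this rule names is not reported here. The lists are OBOX-related homeobox genes, NR5A2 relatives and cofactors, activation factors, 2-cell markers, lineage factors, and cumulus, fibroblast and oocyte markers. Obox7 and Obox8 were added for context. Alternatives were a pseudocount of 0.1, no filter and a filter of 1 RPKM, median-ratio scaling, nuclear reads only, a replicate block, no fold threshold, a joint fit of all groups, and leaving out each library or replicate.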

Additional observations from a re-analysis of the deposited data

Results flagged for a closer look

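For Obox5 the step from the 4-cell to the 8-cell stage differed between NTC and in vivo embryos by the interaction term in limma (-2.95, adjusted p = 0.0215), on levels of at most 10.3 RPKM in these groups. For Obox1 the step from the 1-cell to the 2-cell stage differed between NTM and in vivo embryos (-2.64, adjusted p = 0.0472). This call was lost in most fits that left out a library. It was also lost with median-ratio scaling, nuclear reads only, no filter on low values or a replicate block. The split of reads between Obox1 and Obox2 is uncertain as well.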

How the results depend on the processing

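Of 178 member values with a fit 36 were called, and 21 of these kept their call under every alternative. The following counts are of member calls. In vivo transitions had 5, with 8 under median-ratio scaling, 9 with one fit over all 20 groups and 4 to 6 when a replicate was left out. Under median-ratio scaling the change from the 4-cell to the 8-cell stage in vivo turned positive for Nr5a2 (1.34) and Obox6 (1.12), where that scaling moved the median of all genes by 0.89. NTC transitions had 9 (6 to 9 with a replicate left out), NTM transitions 8 (5 to 8, the lowest without replicate 2 of every group) and donor comparisons 7 (7 to 8). NTC against in vivo had 3, with 0 under median-ratio scaling, 0 with no filter on low values, 1 with nuclear reads only, 4 with one fit and 0 to 5 with a replicate left out (0 without replicate 2 or 3 of every group, 5 without in vivo 2-cell replicate 3). NTM against in vivo had 2, with 0 under median-ratio scaling, 1 with no filter, 1 with nuclear reads only, 8 with one fit and 0 to 2 with a replicate left out. NTM against NTC had 0, with 2 under median-ratio scaling, 2 with no fold threshold and 0 to 1 with a replicate left out. Interactions had 2, with 1 with no filter, 1 with nuclear reads only, 4 with one fit and 0 to 4 with a replicate left out. Summing the OBOX reads gave 41.8% for the in vivo 4-cell level relative to the 2-cell level, against 0.335% for Obox5. The share of calls that were higher among all genes went under median-ratio scaling from 26.6% to 41.7% (NTC against in vivo, 4-cell), 15.8% to 37.7% (NTM), 10.1% to 42.9% (in vivo 4-cell to 8-cell), 33.6% to 49.7% (NTC 1-cell to 2-cell) and 28.9% to 49.0% (NTM). Replicate numbers did not pair the libraries, since in no comparison were all 3 correlations of same-numbered libraries over 0.1, and with a replicate block the interactions had 1 call. That block ended the calls of Obox1 in the NTM interaction (-2.64), of Obox2 in NTC 1-cell (-1.28) and of Obox2 in NTM 4-cell embryos (-1.57), added that of Obox2 in NTM 2-cell embryos (-3.03) and changed no other.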
